A study of Mus musculus with 24 samples.

Results

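The dystrophin-glycoprotein complex was followed through the differentiation of cultured mouse myoblasts by RNA-seq, and after silencing of the transcription factors Tead1 and Tead4. It was represented by 8 genes, taken by their symbols from the 28109 genes of the deposited count table: Dmd, Utrn, Dag1, Sgca, Sgcb, Sgcd, Dtna and Nos1. All 8 had a row, and all 8 passed the filter on low counts in the fits of C2C12 cells, of PMs and of both. The 24 libraries came from the mouse myoblast line C2C12, which the labels assign to the C3H strain, and from primary myoblasts (PMs) of a strain labelled C57/B6. Cells received a siRNA against luciferase as the control (siControl) or a mixture that targets Tead1 as well as Tead4 (siTead1/4). RNA was taken at day 0, which is 24 hours after transfection of undifferentiated cells, and at days 3 and 6 in medium with 2% horse serum. Each of the 12 groups held 2 biological replicates. The PMs were isolated from wild-type mice of 3 to 4 weeks and were grown on matrigel in IMDM, whereas C2C12 cells were grown in DMEM. Cell type therefore cannot be told apart from strain, medium and substrate. The number of mice behind the PM replicates is not given in the sources used here.

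The complex links the actin cytoskeleton of the muscle fibre to the basement membrane. Dystrophin (Dmd) binds actin inside the cell and the transmembrane protein dystroglycan (Dag1), whose outer part binds laminin when it is correctly glycosylated. Utrophin (Utrn) is the widely expressed relative of dystrophin that can take its place. The sarcoglycans (Sgca, Sgcb and Sgcd here, for the alpha, beta and delta subunits) form a complex beside dystroglycan, α-dystrobrevin (Dtna) binds dystrophin from the cytoplasmic side, and neuronal nitric oxide synthase (Nos1) is anchored to it at the membrane. Loss of dystrophin causes Duchenne muscular dystrophy, and loss of a sarcoglycan causes a form of limb-girdle muscular dystrophy.

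Promoters are shown for the 2 genes that passed the test after silencing, Sgcd and Nos1, and for Dmd, which had the widest range. Each is the RefSeq window from 250 bases before to 50 bases after an annotated start on GRCm38.p6, written along the strand of the gene. These starts were not matched to the 5' ends of the genes as counted, and by position that of Sgcd appears to lie inside its gene. The letters searched were CATTCC, the core of the MCAT element that TEAD factors bind, and CAGCTG, an E-box of the kind that myogenic factors bind, on both strands. Capitals mark a match.
Sgcd, chr11:47379276-47379575, minus strand: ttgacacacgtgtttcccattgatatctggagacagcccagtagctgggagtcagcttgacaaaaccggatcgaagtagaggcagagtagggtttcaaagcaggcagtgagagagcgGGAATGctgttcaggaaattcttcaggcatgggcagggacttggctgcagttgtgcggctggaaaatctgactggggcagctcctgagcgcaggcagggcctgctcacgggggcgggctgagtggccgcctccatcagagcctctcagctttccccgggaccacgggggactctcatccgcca
Nos1, chr5:117866589-117866888, plus strand: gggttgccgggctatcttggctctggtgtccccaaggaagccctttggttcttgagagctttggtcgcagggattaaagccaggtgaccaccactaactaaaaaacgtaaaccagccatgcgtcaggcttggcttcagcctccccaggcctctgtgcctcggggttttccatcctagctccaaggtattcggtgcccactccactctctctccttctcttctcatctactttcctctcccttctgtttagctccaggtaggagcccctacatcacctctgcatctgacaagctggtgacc
Dmd, chrX:82948620-82948919, plus strand: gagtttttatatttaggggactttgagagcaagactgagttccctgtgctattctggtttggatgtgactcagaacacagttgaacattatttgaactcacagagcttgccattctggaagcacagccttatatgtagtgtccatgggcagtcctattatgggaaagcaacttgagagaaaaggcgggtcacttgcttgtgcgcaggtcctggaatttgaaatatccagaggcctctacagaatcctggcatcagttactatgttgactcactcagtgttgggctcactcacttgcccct
The window of Sgcd held CATTCC on the opposite strand, at 133 bases before that RefSeq start. No other match was found in the windows of 7 genes, Dtna not being searched. Of 32851 mouse promoter windows, 14.7% held CATTCC and 16.3% held CAGCTG.

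On mm9, the build of the count table, the genes lie at chrX:80194209-82451480 (Dmd, plus strand), chr10:12101986-12589163 (Utrn, minus), chr9:108108286-108166255 (Dag1, minus), chr11:94824105-94837641 (Sgca, minus), chr5:74023988-74038983 (Sgcb, minus), chr11:46709755-47802471 (Sgcd, minus), chr18:23573916-23818215 (Dtna, plus) and chr5:118231041-118408849 (Nos1, plus). All starts and ends equalled those of the GENCODE vM1 annotation, in which no exon of the 8 genes overlapped an exon of another gene. A read was counted for the gene, so the long muscle form of dystrophin and the shorter products of later promoters were summed.

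Libraries held between 25453830 and 52784510 counts on genes, with a median of 39204772. Levels are given as CPM, the counts scaled to a common library size after TMM normalization. Silencing was checked on its targets. Tead4 was at 59.5 to 197 CPM in siControl PMs and at 11.1 to 59.2 CPM after siTead1/4, and Tead1 fell in PMs at day 0 (log2 fold change -1.44, adjusted p = 0.021) and day 3 (-1.68, adjusted p = 0.011) but did not pass the test at day 6 (-1.10, adjusted p = 0.14). In C2C12 cells Tead4 fell at days 0 and 3 (log2 fold changes -2.21 and -1.76), whereas Tead1 did not pass the test at any day (-2.46, -1.09 and -0.52). At day 6 in C2C12 cells Tead1 stood at 76.0 and 136 CPM in siControl libraries and at 70.6 and 76.98 CPM in siTead1/4 libraries. Tead4 stood at 86.5 and 150 CPM in siControl and at 39.7 and 57.1 CPM in siTead1/4, without overlap. Neither target passed the test there. All 5 markers of myogenic cells (Myod1, Myf5, Pax7, Des and Cdh15) were detected in every group. Of the 5 markers of differentiated muscle cells (Myog, Myh3, Ckm, Acta1 and Mymk), the summed level at day 0 was 20.7 to 67.8 CPM in siControl C2C12 cells and 7440 to 8018 CPM in siControl PMs, so that the day 0 PMs already held muscle transcripts. At day 3 it was 12863 to 15161 CPM in siControl C2C12 cells, 4696 to 5998 CPM in siTead1/4 C2C12 cells, 25062 to 26297 CPM in siControl PMs and 21565 to 23729 CPM in siTead1/4 PMs. In bulk libraries such as these, fewer differentiated cells and less RNA per cell cannot be told apart.

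The genes differed widely in level. To compare them, CPM was divided by the length of each gene in the count table, from 1735 bases for Sgca to 15758 bases for Dmd; the merged exons of Dmd are longer in GENCODE vM1 (23808 bases), which would lower its level per kb. In siControl PMs at day 3 the order was Dag1 (289 ± 14.6 CPM per kb, mean ± SD, n = 2), Sgcb (69.2 ± 7.52), Sgca (64.3 ± 1.86), Dtna (25.2 ± 0.36), Utrn (23.2 ± 1.04), Dmd (19.8 ± 0.65), Sgcd (3.28 ± 0.43) and Nos1 (1.40 ± 0.39). Dag1 was the most abundant of the 8 per kb in each of the 12 groups. The libraries of Sgcb and Sgca overlapped at this time, and those of the other neighbours in the order did not. In siControl C2C12 cells at day 0 the same scale ran from 38.9 ± 9.75 CPM per kb for Dag1 to 0.0666 ± 0.0099 for Nos1 and 0.0088 ± 0.0077 for Dmd. There, Sgca and Dtna overlapped (2.57 ± 0.15 and 2.36 ± 0.83 CPM per kb).

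**Figure D1:**
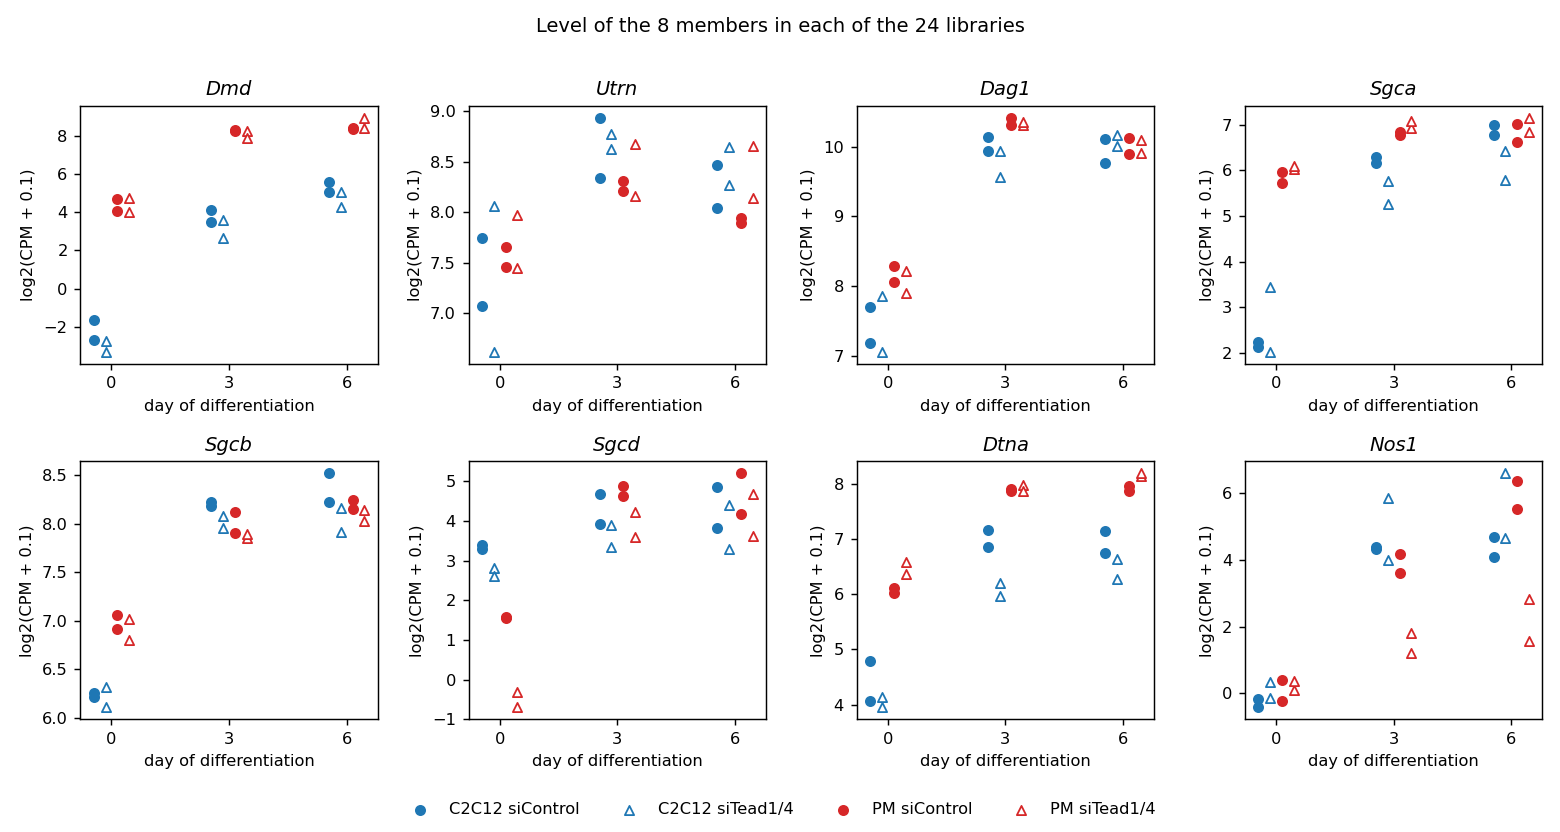
Level of each of the 8 genes, as log2(CPM + 0.1), at days 0, 3 and 6 (points are shifted sideways by group). Every point is 1 library, filled circles are siControl, open triangles are siTead1/4, blue is C2C12 and red is PM. Dmd in C2C12 cells stood at the bottom of its range at day 0, and the PM triangles of Nos1 lay below the PM circles at days 3 and 6.

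The first comparison asked how the complex changed as siControl cells differentiated. In C2C12 cells, 7 of the 8 genes rose between day 0 and day 3, all but Sgcd, where 16.0% of the 15303 genes tested rose and 12.7% fell (adjusted p under 0.05 and absolute log2 fold change over 1, the rule for a call throughout). The median log2 fold change of the 8 was 2.52, against -0.01 over all genes tested. In PMs 5 of the 8 rose (Dmd, Dag1, Sgcd, Dtna and Nos1), where 17.5% of the 16144 genes tested rose and 14.9% fell, and the median of the 8 was 1.95 against 0.01. None of the 8 fell in either cell type. At day 6 against day 0, 6 genes rose in C2C12 cells (17.1% of all genes rose and 14.0% fell), all but Utrn and Sgcd, and 6 rose in PMs (20.2% rose and 15.3% fell), all but Utrn and Sgca.

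Dmd, the dystrophin gene, was almost absent from undifferentiated C2C12 cells. The siControl libraries held 8 and 3 reads of it on day 0 (0.225 and 0.0533 CPM), 476 and 863 on day 3 (11.2 and 17.5 CPM), and 1707 and 1443 on day 6 (32.9 and 48.2 CPM). Each day lay apart from the others, and on summed reads day 3 was 122 times day 0 (exact 95% interval 67.8 to 244, counting error only). The fitted log2 fold change was 6.78 ± 0.66 (SE, adjusted p = 4.1e-05). In siControl PMs Dmd stood at 25.5 and 16.8 CPM at day 0, at 319 and 304 CPM at day 3, and at 340.3 and 333.5 CPM at day 6. The PM libraries of day 0 thus overlapped in level with the C2C12 libraries of day 3, and the PM rise to day 3 was 3.82 ± 0.29 on the log2 scale (adjusted p = 1.9e-06).

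Utrn, the utrophin gene, covered a much narrower range than Dmd. In siControl C2C12 cells it stood at 135 and 215 CPM at day 0, at 324 and 489 CPM at day 3 and at 263 and 353 CPM at day 6. It passed the test at day 3 by a small margin (log2 fold change 1.18 ± 0.42, adjusted p = 0.047), and that call was lost whichever of the 4 libraries was left out (adjusted p 0.057 to 0.247). In siControl PMs the values were 201 and 175 CPM at day 0, 297 and 316 CPM at day 3, and 238 and 246 CPM at day 6, and the difference at day 3 was under the fold threshold (0.65 ± 0.22, adjusted p = 0.026). The ratio of Dmd to Utrn per kb was 0.0014 and 0.000209 in siControl C2C12 cells at day 0, 0.0291 and 0.03 by day 3, and 0.105 and 0.115 by day 6. In siControl PMs it was 0.106 and 0.0803 at day 0, climbed to 0.902 and 0.808 by day 3, and reached 1.20 and 1.14 by day 6. In siTead1/4 PMs it was 1.03 and 1.01 by day 6. Whether Dmd exceeded Utrn per kb depended on the length taken for Dmd. With the length in the count table it did so in the 4 PM libraries of day 6 and in no other library, and with the merged exons of GENCODE vM1 these 4 ratios were 0.795 and 0.754 (siControl) and 0.683 and 0.668 (siTead1/4), so that Dmd stayed below Utrn in all 24 libraries.

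**Figure D2:**
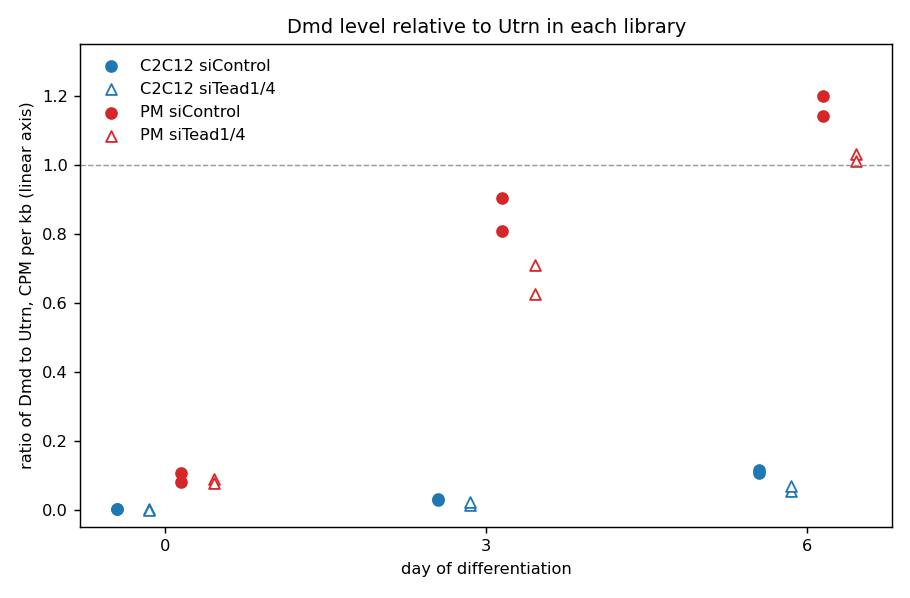
Ratio of the Dmd level to the Utrn level, both in CPM per kb, in each of the 24 libraries by day, on a linear axis. Filled circles are siControl, open triangles are siTead1/4, blue is C2C12 and red is PM, and the dashed line marks equal levels. The C2C12 libraries stayed at or below 0.115 and the PM libraries of day 6 lay between 1.01 and 1.20. Levels use the lengths in the count table, and with the merged exons of GENCODE vM1 the PM libraries of day 6 would lie below the line, between 0.668 and 0.795.

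Dag1, which encodes both parts of dystroglycan from 1 transcript, rose in both cell types. Its siControl levels in C2C12 cells were 146 and 209 CPM at day 0, 982 and 1129 CPM at day 3 and 869 and 1108 CPM at day 6. In PMs they were 314 and 267 CPM at day 0, 1271 and 1365 CPM at day 3, and 956 and 1119 CPM at day 6. Day 0 lay below both later days in each cell type. The log2 fold changes at day 3 were 2.53 ± 0.31 in C2C12 cells (adjusted p = 0.00018) and 2.13 ± 0.15 in PMs (adjusted p = 1.0e-06), and their difference was -0.39 ± 0.34 (PM minus C2C12, adjusted p = 0.52).

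The 3 sarcoglycans had separate courses. Sgca was at 4.64 and 4.26 CPM in siControl C2C12 cells at day 0, at 78.6 and 71.9 CPM at day 3, and at 126 and 109 CPM at day 6. In siControl PMs it was already at 52.7 and 62.1 CPM at day 0 and reached 114 and 109 CPM at day 3. It rose in C2C12 cells (4.04 ± 0.44, adjusted p = 8.8e-05), whereas its difference in PMs was under the fold threshold (0.90 ± 0.15, adjusted p = 0.00051). Sgcb went from 76.3 and 74.5 CPM at day 0 to 299 and 291 CPM at day 3 in C2C12 cells (1.93 ± 0.19, adjusted p = 4.2e-05), and from 121 and 133 CPM to 239 and 279 CPM in PMs (0.97 ± 0.11, under the fold threshold). Sgcd showed the reverse order of the cell types. In PMs it went from 2.84 and 2.87 CPM at day 0 to 29.6 and 24.6 CPM at day 3 (3.19 ± 0.42, adjusted p = 8.9e-05). In C2C12 cells it stood at 10.4 and 9.67 CPM at day 0 and at 15.2 and 25.6 CPM at day 3, which did not pass the test (0.99 ± 0.43, adjusted p = 0.091).

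The cytoplasmic partners also rose. In siControl C2C12 cells Dtna, α-dystrobrevin, went from 16.6 and 27.7 CPM at day 0 to 116 and 144 CPM at day 3 (2.51 ± 0.28, adjusted p = 9.5e-05). In siControl PMs it went from 64.8 and 68.7 CPM to 235 and 239.8 CPM (1.78 ± 0.10, adjusted p = 4.0e-07). Nos1, the nitric oxide synthase, was near 1 CPM in both cell types at day 0, with 23 and 45 reads in C2C12 cells and 58 and 27 reads in PMs. By day 3 it stood at 21.0 and 20.1 CPM in C2C12 cells (4.77 ± 0.77, adjusted p = 0.00093) and at 12.2 and 18.1 CPM in PMs (3.85 ± 0.48, adjusted p = 6.2e-05).

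Between days 3 and 6 few of the 8 genes were called. In C2C12 cells edgeR called none of the 8 and 0% of all genes (DESeq2 called none of the 8 and 17 genes in all), with 1 of the 8 and 406 of all genes at an unadjusted p under 0.05. That gene was Dmd, with a log2 fold change of 1.50 ± 0.45 and no overlap between the days. With no filter on low counts edgeR called it (1.49, adjusted p = 0.00042). Sgca was also higher at day 6 without overlap (0.65), and the other members overlapped between the days. In PMs 1 of the 8 rose, Nos1, which reached 46.0 and 82.9 CPM at day 6 (2.08 ± 0.40, adjusted p = 0.018), where 2.22% of all genes rose and 0.582% fell. This call was lost without PM siControl day 3 replicate 1, day 3 replicate 2 or day 6 replicate 2 (log2 fold change 1.58 to 2.39, adjusted p 0.0556 to 0.128).

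The difference of the rise to day 3 between the cell types was tested directly on all 24 libraries. It passed for 3 of the 8 genes, where 11.2% of the 16926 genes tested passed in either direction. The rise was smaller in PMs for Sgca (-3.12 ± 0.45 on the log2 scale, PM minus C2C12, adjusted p = 0.00015) and Dmd (-2.96 ± 0.75, adjusted p = 0.013) and larger in PMs for Sgcd (2.22 ± 0.64, adjusted p = 0.028). The Dmd value rests on the 11 reads of C2C12 day 0, and without C2C12 siControl day 0 replicate 2 it was -2.08 (adjusted p = 0.153). The Sgcd call was lost in 6 of the 8 fits that left out 1 library of the groups compared (1.89 to 2.28, adjusted p 0.0585 to 0.122). The summed markers of differentiated muscle cells moved in the same way as Dmd and Sgca, being low at day 0 in C2C12 cells alone, and their part in these differences was not tested.

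**Figure D3:**
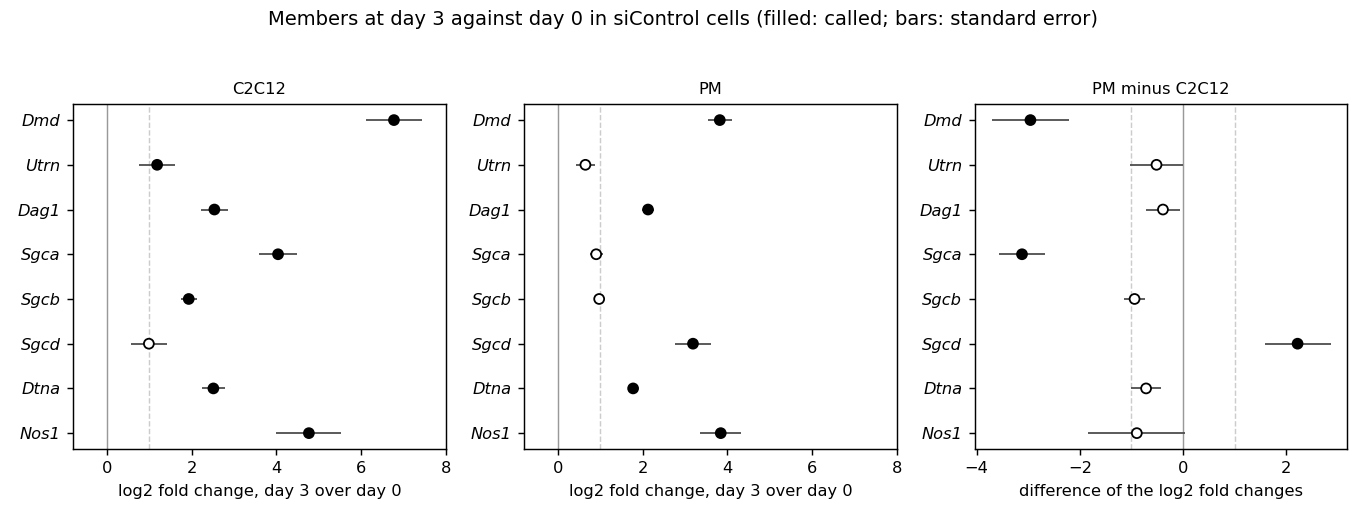
Log2 fold change of the 8 genes at day 3 over day 0 in siControl C2C12 cells (left) and siControl PMs (centre), and the difference of the 2 values, PM minus C2C12 (right). Bars are standard errors, filled points passed the rule for a call, and dashed lines mark an absolute value of 1. Dmd and Sgca lay further right in C2C12 cells and Sgcd in PMs.

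Levels were also compared directly between siControl PMs and C2C12 cells on each day. At day 0, 4 of the 8 genes passed the rule for a call (26.8% of all genes in either direction). Dmd was higher in PMs (7.40 ± 0.59), as were Sgca (3.69 ± 0.35) and Dtna (1.59 ± 0.21), and Sgcd was lower (-1.81 ± 0.47). Sgcb (0.75) and Dag1 (0.71) were also higher in PMs without overlap, but under the fold threshold. Only Dmd passed the rule at day 3 (4.44 ± 0.42, adjusted p = 4.1e-07, with 29.8% of all genes). Dtna was also higher in PMs at days 3 and 6 without overlap, but under the fold threshold (0.87 and 0.96). Over the alternative edgeR and DESeq2 fits its adjusted p was 0.00017 to 0.0019 at day 3 and 5.5e-05 to 0.0055 at day 6. At day 6 Dmd was still higher in PMs (3.06 ± 0.39, adjusted p = 1.4e-05), and Nos1 was as well (1.60 ± 0.59, adjusted p = 0.041), where 24.9% of all genes differed. The Nos1 call was lost without C2C12 siControl day 6 replicate 1 or replicate 2 or PM siControl day 6 replicate 2 (log2 fold change 1.10 to 1.91). At day 6 the summed markers of differentiated muscle cells were at 11610 to 14841 CPM in C2C12 cells and 20783 to 24538 CPM in PMs, and the lowest PM library of Dmd (333.5 CPM) was well above the highest C2C12 library (48.2 CPM).

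The next comparison asked how silencing of Tead1 and Tead4 changed the complex. In C2C12 cells edgeR called none of the 8 genes at day 0, day 3 or day 6, where it called 0.438%, 1.27% and 0.0457% of all genes in either direction. At an unadjusted p under 0.05 there were 0, 1 and 1 of the 8, and DESeq2 called none at any day. In PMs edgeR called 1 of the 8 at each day, Sgcd at day 0 and Nos1 at days 3 and 6, where 2.60%, 3.30% and 0.743% of all genes were called. The median log2 fold change of the 8 was 0.03, -0.09 and 0.08 at the 3 days in PMs, and 0.01, -0.50 and -0.40 in C2C12 cells, against values between -0.01 and 0.02 over all genes tested.

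Nos1 was the member with the largest change. In PMs at day 3 it stood at 12.2 and 18.1 CPM in siControl libraries and at 2.23 and 3.44 CPM in siTead1/4 libraries. At day 6 it stood at 46.0 and 82.9 CPM against 2.86 and 6.97 CPM. The siControl libraries here are those of the rise described above. The groups did not overlap at either day, whereas at day 0 they did (1.23 and 0.7605 against 0.963 and 1.19 CPM). The log2 fold changes were 0.08 ± 0.54 at day 0, -2.43 ± 0.43 at day 3 (adjusted p = 0.0086) and -3.72 ± 0.44 at day 6 (adjusted p = 0.0043). The day 3 call was lost without PM siTead1/4 day 3 replicate 1 (-2.15, adjusted p = 0.0757), and with all 24 libraries in 1 fit its adjusted p was 0.0502. At day 6 the call held without any 1 of the 4 libraries and was lost when only those 4 libraries entered the fit (-3.71, adjusted p = 0.107).

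In C2C12 cells Nos1 gave no call. Its siTead1/4 libraries stood at 57.5 and 15.9 CPM at day 3 and at 97.1 and 25.3 CPM at day 6, against 21.0 and 20.1 CPM and 25.7 and 16.8 CPM in siControl. Replicate 1 was the higher one at both days. The SD of the siTead1/4 replicates, 29.4 CPM at day 3 and 50.8 CPM at day 6, was larger than the difference of the means, and the log2 fold changes were 0.82 ± 0.63 and 1.53 ± 0.64. The difference between the cell types was tested itself. It was -5.24 ± 0.87 at day 6 (PM minus C2C12, adjusted p = 0.043), where 0.0354% of all genes passed, and -3.26 ± 0.85 at day 3 (adjusted p = 0.077), where 1.25% passed. The day 3 difference was called by DESeq2 (adjusted p = 0.00567) and by edgeR with no filter on low counts (5.6e-07) or with the replicate number as a block (0.0232). No other member passed at either day, and none of the 8 passed at day 0 (edgeR, 2 of the 8 at an unadjusted p under 0.05, none by DESeq2), where 0.00591% of all genes did. The day 6 call was lost in 7 of the 8 fits that left out 1 library (-6.03 to -3.99 over the 8 fits, adjusted p of the 7 from 0.0806 to 0.407). It held only without C2C12 siTead1/4 day 6 replicate 2.

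**Figure D4:**
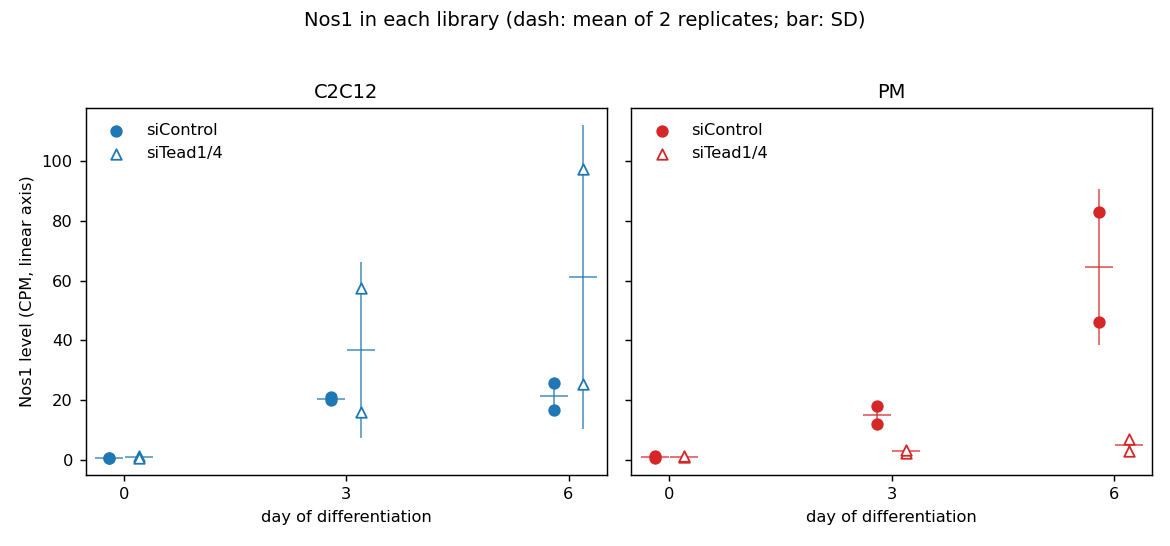
Level of Nos1 in CPM on a linear axis, by day, in C2C12 cells (left) and PMs (right). Points are libraries, filled circles siControl and open triangles siTead1/4, with the mean (dash) and SD (bar) of 2 replicates. In PMs both siTead1/4 libraries lay below both siControl libraries at days 3 and 6, and in C2C12 cells the siTead1/4 replicates lay far apart.

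Markers of other cells were read beside Nos1, since neurons also express it. Of the 4 neuronal markers, Rbfox3 had no read in PMs at day 6, Snap25 and Syt1 had at most 4 reads in a PM library of day 6, and Tubb3 made up the rest of the list (21.1 to 31.8 CPM in siControl and 37.2 to 41.0 CPM in siTead1/4 as the sum of the list). In PMs the 5 fibroblast markers did move with Nos1, from 47.0 to 76.7 CPM in siControl at day 6 to 12.9 to 14.2 CPM after siTead1/4, mostly through Dcn (decorin), with Tcf21 at 0 in both. In PMs at day 3, where Nos1 was also lower, their sum was 5.69 to 8.36 CPM in siControl and 3.05 to 4.38 CPM after siTead1/4. In C2C12 cells, where the mean of Nos1 was higher after siTead1/4, their sum was lower too. It went from 87.8 to 197 CPM in siControl to 30.1 to 47.3 CPM at day 3. At day 6 the groups overlapped (50.0 to 216 against 30.9 to 56.1 CPM). The part of these markers in the Nos1 result was not tested. The summed markers of differentiated muscle cells at day 6 were 20783 to 24538 CPM in siControl PMs and 19808 to 20286 CPM after siTead1/4.

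Sgcd, δ-sarcoglycan, was lower in undifferentiated PMs after silencing. At day 0 the siControl libraries held 134 and 102 reads (2.84 and 2.87 CPM) and the siTead1/4 libraries 30 and 26 reads (0.705 and 0.514 CPM), with no overlap. The log2 fold change was -2.24 ± 0.51 (adjusted p = 0.025). This call was lost whichever of the 4 libraries was left out (-2.48 to -2.02, adjusted p 0.0922 to 0.156). At day 3 Sgcd stood at 29.6 and 24.6 CPM in siControl and 18.6 and 12.0 CPM in siTead1/4 (-0.83 ± 0.38, adjusted p = 0.22), and at day 6 the groups overlapped (36.9 and 18.0 against 25.8 and 12.2 CPM). In C2C12 cells the siTead1/4 values of Sgcd at day 0 were 6.93 and 6.07 CPM against 10.4 and 9.67 CPM (-0.63 ± 0.43, adjusted p = 0.70). The effect on Sgcd at day 0 was not shown to differ between the cell types (-1.61 ± 0.70, PM minus C2C12, adjusted p = 1.0).

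The remaining members gave no call after silencing. Dmd in PMs stood at 26.3 and 15.9 CPM at day 0, 304 and 241 CPM at day 3 and 495 and 339 CPM at day 6 in siTead1/4 libraries, overlapping siControl at days 0 and 6 and just below it at day 3, with log2 fold changes of -0.01 ± 0.27, -0.20 ± 0.26 and 0.31 ± 0.26. In C2C12 cells at day 0 Dmd had 2 and 0 reads after siTead1/4 against 8 and 3. The ratio of summed reads was 0.239 (exact 95% interval 0.0257 to 1.09, counting error only). At day 3 Dmd was at 6.16 and 11.8 CPM against 11.2 and 17.5 CPM in C2C12 cells. Dag1 differed by -0.30 to 0.15 on the log2 scale over the 6 comparisons of the 2 cell types, Sgcb by -0.33 to -0.02, and Utrn by 0.00 to 0.50. Sgcb lay below siControl without overlap at days 3 and 6 in both cell types. Utrn lay above it without overlap in PMs at day 6, and Dag1 overlapped throughout. Groups of 2 libraries can lie apart without an effect, and the share of all genes without overlap is not given here. Dtna in PMs at day 0 was higher in siTead1/4 (95.7 and 82.2 against 64.8 and 68.7 CPM), past the test but under the fold threshold (0.41 ± 0.10, adjusted p = 0.038). In C2C12 cells at day 3 its libraries lay apart in the other direction (73.6 and 62.9 against 116 and 144 CPM), without passing the test (-0.95 ± 0.26, adjusted p = 0.12). Sgca in C2C12 cells was at 38.3 and 54.4 CPM against 78.6 and 71.9 CPM at day 3 (-0.73 ± 0.39), beside the markers of differentiated muscle cells that were also lower there. Sgcd was lower at day 3 as well (-0.75, no overlap). At day 6 in C2C12 cells Sgca (55.4 and 85.6 against 126 and 109 CPM, -0.74) and Dtna (77.4 and 99.0 against 107 and 142 CPM, -0.49) still lay below siControl without overlap. Utrn, Dag1 and Nos1 had higher means after siTead1/4 there, with overlap. In PMs Sgca stood between 0.17 and 0.20 above siControl on the log2 scale at the 3 days, without a call and without overlap at days 0 and 3. Dtna in PMs at day 6 was also above siControl without overlap (0.26), again without a call.

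**Figure D5:**
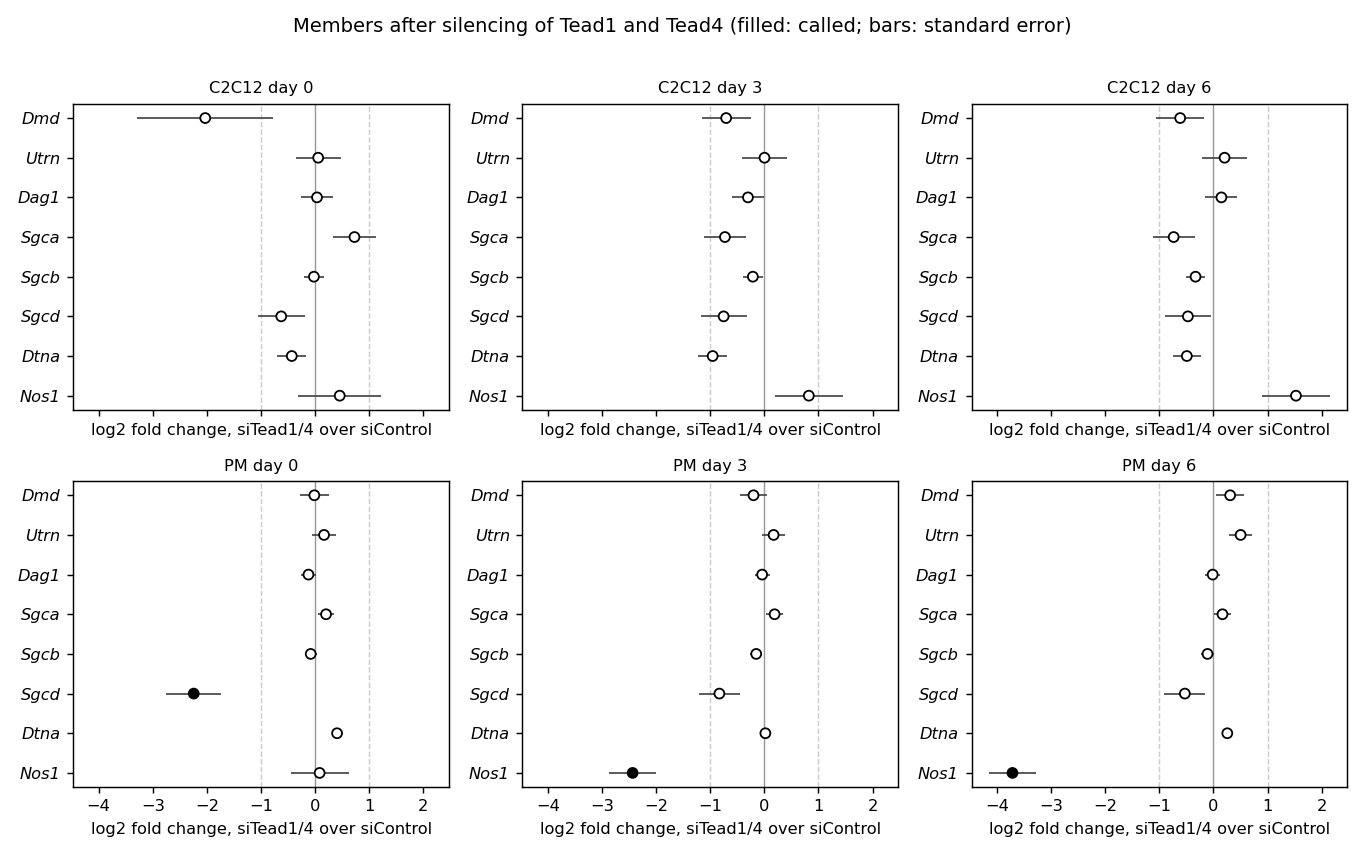
Log2 fold change of the 8 genes, siTead1/4 over siControl, in C2C12 cells (top) and PMs (bottom) at days 0, 3 and 6. Bars are standard errors, filled points passed the rule for a call and dashed lines mark an absolute value of 1. The 3 filled points are Sgcd in PMs at day 0 and Nos1 in PMs at days 3 and 6.

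The complex was also induced in silenced cells. Between day 0 and day 3, 6 of the 8 genes rose in siTead1/4 C2C12 cells (13.8% of all genes rose and 10.8% fell) and 5 of the 8 in siTead1/4 PMs (15.9% rose and 12.4% fell). They were all but Utrn and Sgcd in C2C12 cells, and Dmd, Dag1, Sgcd, Dtna and Nos1 in PMs. Dmd went from 26.3 and 15.9 CPM to 304 and 241 CPM in PMs (3.64 ± 0.29), and Dag1 from 297 and 239 CPM to 1268 and 1311 CPM (2.21 ± 0.15). Nos1 went from 0.963 and 1.19 CPM to 2.23 and 3.44 CPM (1.33 ± 0.48, adjusted p = 0.038), a call that was lost without PM siTead1/4 day 0 replicate 1, day 0 replicate 2 or day 3 replicate 2 (0.97 to 1.49). In C2C12 cells Dmd went from 2 and 0 reads to 233 and 511 reads, 321 times on summed reads (exact 95% interval 88.6 to 2656, counting error only). Utrn (1.13 ± 0.42, adjusted p = 0.061) and Sgcd (0.86 ± 0.43, adjusted p = 0.15) did not pass there.

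The wider pathway was read from 4 lists with 52 genes, of which 50 were matched in the table and 47 passed the filter: the other subunits of the complex, the laminins and other ligands of dystroglycan, the enzymes of its glycosylation, and the linkers and partners at the sarcolemma. With siControl, 14 of the 47 rose and 2 fell between day 0 and day 3 in C2C12 cells (of all genes, 16.0% rose and 12.7% fell), and 14 rose and 3 fell in PMs (17.5% and 14.9%). At day 6 against day 0, 12 rose and 3 fell in C2C12 cells (17.1% and 14.0%) and 12 rose and 1 fell in PMs (20.2% and 15.3%). With siTead1/4 at day 3, 13 rose and 2 fell in C2C12 cells (13.8% and 10.8%) and 14 rose and 3 fell in PMs (15.9% and 12.4%). After silencing, 1 of the 47 was called in C2C12 cells at day 0, in the lower direction (0.438% of all genes were called), and 2 of the 47 were called in PMs at day 0 (2.60%). In those PMs Cav3, the muscle caveolin, fell (-1.83, adjusted p = 0.0088) and Krt8, a keratin at a level under 1 CPM, rose (2.31, adjusted p = 0.023). Of the 4 fits that left out 1 library, the calls held in 1 for Cav3 and 0 for Krt8. At days 3 and 6 edgeR called none of the 47, with 7 (C2C12 day 3), 3 (C2C12 day 6), 14 (PM day 3) and 6 (PM day 6) at an unadjusted p under 0.05, and DESeq2 called 1, in C2C12 cells at day 3.

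Among the other subunits, 5 of 8 tested rose and 1 fell in siControl C2C12 cells by day 3 (median 1.49), where 16.0% of all genes rose and 12.7% fell. In siControl PMs 2 rose and 1 fell (median 0.18), where the shares of all genes were 17.5% and 14.9%, so that the PM count was close to them. Sntb1, a syntrophin that binds dystrophin and dystrobrevin, rose in C2C12 cells (5.58 on the log2 scale) from 1.63 and 1.801 CPM, while it was already at 92.2 to 93.8 CPM in day 0 PMs. The difference between the cell types was itself past the threshold for 3 of the 8, among them Sntb1 (-4.63) and Drp2, a relative of dystrophin (-1.80). Sspn, sarcospan, and Drp2 rose in C2C12 cells (1.66 and 1.51). Dtnb, the β-dystrobrevin of non-muscle tissues, fell in both (-1.35 and -1.29). Sgcz, Sntg1 and Sntg2 did not pass the filter and had at most 6 reads in a library.

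Counts of the ligands, glycosylation enzymes and partners stand against the same shares of all genes (16.0% rose and 12.7% fell in C2C12 cells, 17.5% and 14.9% in PMs). Of 10 ligand genes, 4 rose by day 3 in siControl C2C12 cells and 4 rose and 1 fell in PMs. Lama2, the laminin chain of adult muscle, rose in C2C12 cells (2.54), and Lamb2 rose in PMs (1.61). Lama1 passed in both but from at most 0.141 CPM at day 0, to 0.66 to 1.94 CPM in C2C12 cells and 0.87 to 1.47 CPM in PMs. Bgn, biglycan, rose in both (1.20 and 1.87), Hspg2, perlecan, rose in C2C12 cells (1.11), and in PMs Lama4 rose (1.56) and Lamb1 fell (-1.19). Of 16 glycosylation genes, 1 rose in C2C12 cells, Large (1.40), and 1 fell in PMs, its relative Gyltl1b (-1.59). Of 13 linkers and partners, 4 rose and 1 fell in C2C12 cells and 8 rose in PMs. Cav3 rose from 0.213 to 0.394 CPM to 101 to 104 CPM in C2C12 cells (8.41) and from 49.0 to 56.9 CPM to 297 to 379 CPM in PMs (2.62). Dysf, dysferlin, rose in both (4.67 and 2.26), as did Des, desmin (1.89 and 2.11), which is also among the myogenic markers, and Itga7, the integrin of muscle (2.39 and 1.02). Krt19 fell in C2C12 cells (-2.93). Synm, synemin, rose in PMs (4.45) from 1.49 to 1.53 CPM to 27.7 to 40.9 CPM, and Krt8 rose there (2.40). The difference of the change between the cell types (PM minus C2C12) passed for 11 of the 47 genes, where 11.2% of all genes passed. Apart from the 3 subunits, these were Cav3 (-5.79), Synm (3.70), Krt19 (2.62), Dysf (-2.39), Lama2 (-1.93), Itga7 (-1.35), Lamb2 (1.03) and Lamc1 (1.0).

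Over the 24 libraries, the genes whose log2 CPM followed Dmd most closely among the 16926 genes tested were Pygm (Pearson's r = 0.991), Fsd2 (0.990), Ppp1r3a (0.989), Trdn (0.988) and Sort1 (0.988). Pygm encodes the glycogen phosphorylase of muscle, Ppp1r3a a muscle subunit of a phosphatase bound to glycogen, and Trdn triadin of the sarcoplasmic reticulum. Among the members, Dtna (0.966) and Sgca (0.931) lay closest to Dmd, and Utrn (0.515), Nos1 (0.472) and Sgcd (0.322) furthest. Within PMs alone the correlation with Utrn was 0.796, that with Nos1 0.719 and that with Sgcd 0.927. Within C2C12 cells alone they were 0.769, 0.904 and 0.797, so that these members followed Dmd more closely within a cell type than over both. These values describe libraries that share cell types, days and siRNAs, and are not independent of those groups.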

How the data were processed

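The 8 genes and all gene lists were chosen with earlier results of these data known. The deposited table holds raw counts per gene, which the authors made from polyadenylated, unstranded libraries (TruSeq v2). The submitters' processing notes name mm9, CASAVA 1.8.2, TopHat2 2.0.10, Bowtie2 2.1.0, HTSeq 0.6.1 and DESeq2 1.8.1. The table's values divided by size factors, and the 36 columns of 12 libraries that match no sample used here, were left out.

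Counts were tested with edgeR 4.0.16 in R 4.3.3 (filterByExpr, TMM, glmQLFit and glmQLFTest, two-sided). Each cell type was fitted on its 12 libraries with 6 group means, and comparisons between cell types on 24 libraries with 12 group means. P-values were adjusted over all genes tested with the Benjamini-Hochberg method. Calls required an absolute log2 fold change over 1 together with an adjusted p under 0.05. Spread is borrowed across genes, since groups hold 2 libraries. Replicates correlated at 0.976 to 0.993 (log2 CPM, prior count 2). Alternatives were median-of-ratios size factors, no filter, a replicate block, DESeq2 1.42.0, other sets of libraries in the fit, and each library left out.

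Named were all 8 genes, the 2 targets, up to 5 called genes with the largest change per list and comparison (the 3 siTead1/4 comparisons of each cell type, siControl day 3 against day 0, and its difference), and the 5 genes most correlated with Dmd. Motifs were searched in the RefSeq promoter table. Tead1 was read from the row of its protein-coding gene, as a second row carries its symbol. Some genes of the wider lists are counted but not reported here by name.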

Additional observations from a re-analysis of the deposited data

Results flagged for a closer look

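A tested difference of an effect between the cell types is given for 4 values, each on the log2 scale as PM minus C2C12 and each already described with its groups. The effect of siTead1/4 on Nos1 at day 6 differed by -5.24 (edgeR, adjusted p = 0.043), with all 4 PM libraries in the order siControl over siTead1/4 and both C2C12 groups overlapping. The change of siControl cells from day 0 to day 3 differed by -3.12 for Sgca (adjusted p = 0.00015), by -2.96 for Dmd (adjusted p = 0.013) and by 2.22 for Sgcd (adjusted p = 0.028). The calls of Nos1 and Sgcd were lost in most fits that left out a library. That of Dmd was lost without C2C12 siControl day 0 replicate 2. Groups of 2 libraries are too small for the search for single libraries far from the others.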

How the results depend on the processing

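Over 1751 values of the 8 genes under the alternatives, 1687 kept their side of the rule for a call, 38 lost a call and 26 gained one. No called value changed sign, and 84 uncalled ones did. Counts of the 8 genes called moved by more than 1.5 times as follows, and the causes were not tested. With no filter on low counts 1 gene was called in place of 0 for siTead1/4 in C2C12 cells at day 6 (Nos1), for siControl C2C12 cells at day 6 against day 3 (Dmd), and for the siTead1/4 effect in PM minus C2C12 at day 3 (Nos1). For that last difference the replicate block and DESeq2 also gave 1 (Nos1, adjusted p = 0.0232 and 0.00567). With all 24 libraries in 1 fit, 0 in place of 1 gene was called for siTead1/4 in PMs at day 3 and for siControl PMs at day 6 against day 3. With only the groups compared in the fit, 0 in place of 1 was called for siTead1/4 in PMs at day 6 and for its difference between the cell types at day 6. When each library was left out in turn, the counts ran from 0 to 0 for siTead1/4 in PMs at day 0, from 0 to 1 at day 3, from 0 to 1 for siControl PMs at day 6 against day 3, from 0 to 1 for the difference of the siTead1/4 effect at day 3 and at day 6, and from 1 to 2 for PM against C2C12 at day 3 and at day 6. The merged exon length of Dmd, an alternative chosen after seeing the data, took the ratio of Dmd to Utrn in PMs at day 6 from above 1 to below it.

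The labels give the groups the same replicate numbers, but not what a number shares. Deviations of same-numbered libraries correlated at over 0.1 in 6 of 15 pairs of groups in C2C12 cells (-0.203 to 0.525) and in 14 of 15 in PMs (0.0695 to 0.539). Between siControl and siTead1/4 at days 0, 3 and 6 the values were 0.414, 0.443 and 0.539 in PMs. In C2C12 cells they were -0.142, 0.0951 and 0.525. Same-numbered PM libraries thus shared part of their deviation. The main tests nevertheless did not pair the libraries, and the replicate block was run as an alternative. The mean correlation of a group with the others was above 0 in 5 of 6 C2C12 groups and in 6 of 6 PM groups. The replicate block cost the call of Utrn in siControl C2C12 cells at day 3 (1.18, adjusted p = 0.0563) and gave the Nos1 call above; no other call of the 8 genes changed with it.

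Counts over all genes, which stand behind the percentages, depended more on the settings. For siTead1/4 against siControl they ran from 0 to 480 (67 as reported) in C2C12 cells at day 0, from 7 to 1055 (195) at day 3 and from 0 to 387 (7) at day 6, and in PMs from 204 to 586 (420), 312 to 804 (532) and 0 to 335 (120). For the difference of that effect between the cell types they ran from 1 to 88 (1), 122 to 853 (212) and 1 to 146 (6) at the 3 days, and for siControl at day 6 against day 3 from 0 to 102 (0) in C2C12 cells and from 148 to 732 (452) in PMs. These ranges leave out no library. The high ends came without the filter, except for siTead1/4 in PMs at day 0 and PMs at day 6 against day 3, where they came with the replicate block.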
